A study of Mus musculus with 12 samples.

Results

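Contact inhibition is described here as the change in transcript levels between control NIH3T3 cells grown to complete confluency and control cells at 30% confluency. These were 4 of the 12 arrays of the series, 2 at each density. Both groups carried the same control vector, delivered by virus, and differed by label only in cell density. NIH3T3 is an established mouse embryonic fibroblast line, and the cells were grown in 35 mm dishes, lysed on reaching the stated density and profiled on Affymetrix arrays from column-purified total RNA. The other 8 arrays carried Tead2-VP16 at complete confluency, Tead2-VP16 at high density, Yap at high density or Tead2-EnR at low density, and entered mainly through the shared estimate of the spread between arrays. The labels do not say if a density's pair of arrays stands for separate cultures, so every p-value measures the spread between these arrays.

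Fibroblasts that touch one another on all sides stop dividing and leave the cell cycle reversibly, which is known as contact inhibition. The Hippo kinases are one route by which contact is read: at high density they phosphorylate Yap, which leaves the nucleus and no longer coactivates the Tead transcription factors. Density also changes how cells receive growth factors, how they attach and spread, and what matrix surrounds them.

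Levels are log2 intensities and changes are differences between group means on that scale, confluent minus sparse, so that 1 unit is a 2-fold change. Errors on changes are standard errors (SE) of the fit, and a gene was called when its adjusted p in limma's test was under 0.05. Of 18193 genes, 4748 (26.1%) were higher and 4150 (22.8%) were lower in confluent cells, and 1050 (5.77%) and 944 (5.19%) changed in those directions by 2-fold or more. The median gene changed by -0.01. At 8-fold or more, 39 genes were higher and 24 lower, and at 16-fold or more 11 were higher and 1 lower. The 2 arrays of a density correlated at r = 0.998 across genes, both for confluent and for sparse cells, and the 2 group means at 0.965. The 2 confluent arrays lay wholly above or below the 2 sparse arrays for 70.3% of genes. With 48.9% of all genes called, many members of any list will be called, and each list below is read against these shares. In bulk RNA, fewer cells of a type and less RNA per cell cannot be told apart. The 24 spike-in probe sets, which report RNA added during labelling, averaged 8.58 ± 0.12 in confluent and 8.19 ± 0.093 in sparse control (SD, n = 2 each), and the transferrin receptor's 3′ minus 5′ signal, a measure of RNA and labelling quality, 1.30 ± 0.19 and 0.98 ± 0.05. The same measure was 0.23 ± 0.017 in confluent and 0.081 ± 0.0066 in sparse control for actin, and -0.28 ± 0.031 and -0.23 ± 0.0061 for glyceraldehyde dehydrogenase. What part these had in the changes was not tested. With 2 arrays a density, precision is limited by their number.

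**Figure D1:**
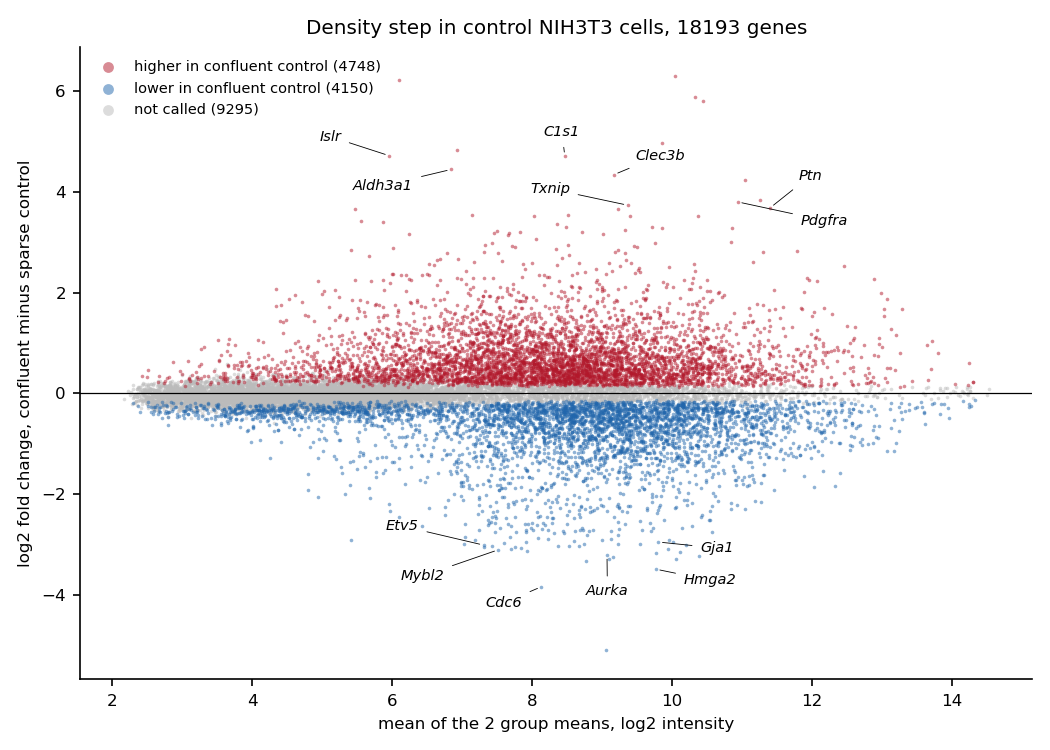
Change between complete confluency and 30% confluency (y axis, log2 fold change) against the average level (x axis, log2 intensity) for 18193 genes, each point one gene, with called genes in red (4748 higher) and blue (4150 lower) and the rest in grey. The largest rises reach further from 0 than the largest falls, with 11 genes at or beyond 16-fold on the upper side and 1 on the lower side.

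The cells carried fibroblast transcripts at both densities. All 11 measured fibroblast markers lay above the median gene, and 8 were higher and 2 lower in confluent cells (1 lower without the second sparse or either confluent array). Vim, the fibroblast intermediate filament protein, read 14.08 and 14.10 in confluent cells, against 14.22 and 14.27 in sparse cells. Thy1, a surface marker of fibroblasts, read 10.33 and 10.34 in confluent cells, against 9.15 and 9.27 in sparse cells, and rose by 1.12 (SE 0.0569, adjusted p = 9.52e-08). None of the 5 adipocyte or 8 endothelial markers measured lay above the median gene, and 1 of 8 epithelial, 2 of 9 macrophage and 1 of 8 skeletal muscle markers did. Of the macrophage and leukocyte markers 1 was higher and 2 lower. The higher one was Lyz2, the lysozyme of macrophages, which read 8.95 and 9.02 in confluent cells, against 7.80 and 7.71 in sparse cells. The lower ones were Cd14, a receptor for bacterial lipopolysaccharide, at 7.34 and 7.57 in confluent cells, against 8.18 and 8.12 in sparse cells, and Cd68, a lysosomal protein of macrophages, at 4.47 and 4.46 in confluent cells, against 5.08 and 5.17 in sparse cells. Ptprc, a surface protein of all leukocytes, read 3.21 and 3.26 in confluent cells, against 3.44 and 3.57 in sparse cells and was not called. Epcam, an epithelial adhesion protein, read 8.40 and 8.38 in confluent cells, against 6.98 and 7.30 in sparse cells on 1 of its 2 probe sets and was not called on the other, and Cdh1, the epithelial cadherin, read 5.63 and 5.62 in confluent cells, against 5.67 and 5.87 in sparse cells and was not called. What part cells of other types had in any change was not tested.

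Genes of the dividing cell were lower without exception on these lists. All 39 measured mitosis genes and all 41 DNA replication genes fell, with medians of -2.60 and -2.05. Cdc6, which loads the replicative helicase at origins, read 6.11 and 6.32 in confluent cells, against 10.07 and 10.03 in sparse cells. Mcm5, a subunit of that helicase, read 8.38 and 8.43 in confluent cells, against 11.63 and 11.76 in sparse cells. Aurka, a spindle kinase, read 7.43 and 7.51 in confluent cells, against 10.67 and 10.68 in sparse cells, on 1 of 2 probe sets that was called. The arrays of the 2 densities were far apart in each case, and the changes were -3.83 (SE 0.0805), -3.29 (SE 0.0658) and -3.20 (SE 0.056). Ccna2, the cyclin of S phase and mitotic entry, fell by 3.21, and Ccne2, a cyclin of the G1 to S transition, fell by 3.05 (SE 0.0948, adjusted p = 4.26e-09). Supply of DNA precursors and repair moved mostly the same way: 24 of 26 nucleotide synthesis genes were lower and 2 higher. Rrm2, the small subunit of ribonucleotide reductase that is made in S phase, fell by 3.09, while its p53-inducible counterpart Rrm2b rose by 0.85. Of 31 repair genes, 22 were lower, among them the homologous recombination genes Rad54l (-2.58) and Brca1 (-2.23), and 6 were higher, among them the nucleotide excision repair genes Xpa (1.28) and Xpc (0.96).

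The promoters of 3 of these genes and of the Tead target Ankrd1 are shown because the same factors, E2F, NF-Y and Tead, are known to bind such letters in dividing cells. Each is the 250 bases before the annotated start, from RefSeq on GRCm38.p6, written 5′ to 3′ on the gene's own strand, and the capitals mark the motif searched. For Mcm5 (chr8:75109259-75109508, plus strand) and Cdc6 (chr11:98907901-98908150, plus strand) this is E2F, for Aurka (chr2:172370571-172370820, minus strand) NF-Y, and for Ankrd1 (chr19:36119845-36120094, minus strand) Tead.
Mcm5: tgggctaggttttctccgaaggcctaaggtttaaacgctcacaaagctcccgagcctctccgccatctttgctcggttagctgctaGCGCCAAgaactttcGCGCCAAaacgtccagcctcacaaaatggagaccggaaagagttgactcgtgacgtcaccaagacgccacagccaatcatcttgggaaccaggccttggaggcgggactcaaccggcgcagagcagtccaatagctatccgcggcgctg
Cdc6: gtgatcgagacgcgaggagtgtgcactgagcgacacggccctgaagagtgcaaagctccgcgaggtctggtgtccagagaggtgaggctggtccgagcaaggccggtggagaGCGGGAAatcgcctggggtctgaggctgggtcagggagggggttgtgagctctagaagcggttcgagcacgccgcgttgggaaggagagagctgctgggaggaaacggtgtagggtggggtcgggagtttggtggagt
Aurka: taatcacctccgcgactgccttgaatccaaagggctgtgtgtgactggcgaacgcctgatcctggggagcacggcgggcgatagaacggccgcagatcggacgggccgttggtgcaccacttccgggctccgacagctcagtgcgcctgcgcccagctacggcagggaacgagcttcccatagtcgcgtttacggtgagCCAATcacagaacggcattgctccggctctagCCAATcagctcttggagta
Ankrd1: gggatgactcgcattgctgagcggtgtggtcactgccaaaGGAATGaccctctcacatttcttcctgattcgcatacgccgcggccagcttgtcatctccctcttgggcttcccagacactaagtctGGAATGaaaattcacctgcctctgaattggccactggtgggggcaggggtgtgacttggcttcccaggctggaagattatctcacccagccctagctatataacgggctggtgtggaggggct
The E2F letters (TTCCCGC or TTGGCGC on either strand) stood at -164 and -149 in Mcm5 and at -138 in Cdc6, counting from the annotated start. CCAAT, read by NF-Y, stood at -51 and -19 in Aurka. GGAATG, read by Tead factors, stood at -210 and -123 in Ankrd1. Over the 18106 promoters of 14449 genes tested, some with several starts, 8.14% held an E2F match on either strand, against 30% of the promoters of DNA replication genes and 2.86% of those of mitosis genes. CCAAT was in 71.4% of mitosis promoters and 57.5% of replication promoters, against 34.7% of all. The cell cycle homology element (TTTGAA) was in 37.1% of mitosis promoters, against 12.5% of replication promoters and 11.9% of all. CCAAT was also in 43.5% of the promoters of genes that fell 2-fold or more and 39.2% of those that rose so far. The letters read by Myc (CACGTG) were in 5.26% of promoters of the Myc and ribosome biogenesis list, against 7.38% of all. GGAATG was in 10.7% of the promoters of genes that fell 2-fold or more and in 11.3% of those that rose so far, against 11.4% of all. A match is a run of letters in a window and not a measured binding site.

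The regulators upstream of S phase did not move as one block. The arrest of fibroblasts by contact is known to involve the inhibitor p27, the product of Cdkn1b, which blocks cyclin E with Cdk2. Cdkn1b read 10.85 and 10.74 in confluent cells, against 9.63 and 9.50 in sparse cells, and rose by 1.23 (SE 0.112, adjusted p = 6.96e-06). Cdkn2c, an inhibitor of Cdk4 and Cdk6, rose by 0.54, whereas Cdkn1a (p21) fell by 0.40 and Cdkn1c (p57) fell by 0.28, a call lost without the first confluent array (change of -0.15) and without either sparse array. Cdkn2a, which belongs to a locus that NIH3T3 cells are known to lack, read 4.11 and 4.23 in confluent cells, against 4.65 and 4.07 in sparse cells and was not called. Over the 8 CDK inhibitors measured, 2 were higher, 4 lower and 2 not called. The lower count was 2 without the first confluent array and on the 4 control arrays alone.

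The pocket proteins, which hold E2F factors inactive, split as well. Rbl2 (p130), the member that binds E2F in quiescent cells, read 8.90 and 8.82 in confluent cells, against 7.69 and 7.74 in sparse cells, and rose by 1.14 (SE 0.0588, adjusted p = 1.06e-07). Rb1 rose by 1.02, called on 1 of 2 probe sets. The repressor E2fs that are themselves made in S phase went the other way: E2f7 fell by 2.47 and E2f8 fell by 2.40. Mybl2 and Foxm1, which drive the genes of the later cycle, fell too (changes of -3.10 and -2.72). Among D-type cyclins, which carry growth factor signals to the cycle, Ccnd1 read 10.57 and 10.58 in confluent cells, against 11.50 and 11.50 in sparse cells, and fell by 0.92. Ccnd2 read 12.12 and 12.03 in confluent cells, against 11.44 and 11.36 in sparse cells, and rose by 0.67. Ccnd3 and Cdk4 were not called (changes of 0.16 and 0.09), and Cdk6 fell by 0.63.

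Myc and its antagonists also parted. Myc, the growth-promoting factor, read 9.59 and 9.68 in confluent cells, against 10.66 and 10.74 in sparse cells, and fell by 1.06 (SE 0.073, adjusted p = 8.52e-07). Mxd4, a repressor that competes with Myc for the partner Max, read 9.91 and 10.02 in confluent cells, against 7.37 and 7.39 in sparse cells, and rose by 2.58 (SE 0.0955, adjusted p = 1.21e-08), higher on all 4 of its probe sets. Mxd3, the family member known to be made in S phase, fell by 1.13, and Max itself was not called (-0.21). Mycn, the relative of Myc best known from embryonic tissue, was opposite to Myc. It read 13.26 and 13.27 in confluent cells, against 7.32 and 7.45 in sparse cells, and rose by 5.88 (SE 0.0767, adjusted p = 5.82e-11), called on 1 of 3 probe sets. The plot of families with members on both sides of 0 sets these genes side by side.

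Genes of the growing cell's machinery were lower over a wide front. All 35 genes of the list of Myc and ribosome biogenesis fell, with a median of -1.38. Of 75 mitochondrial ribosomal proteins, 62 were lower and 3 higher (median -0.54). Mrps6 was the exception in size, at 12.66 and 12.72 in confluent cells, against 11.04 and 10.94 in sparse cells, and rose by 1.70. The 43 cytosolic ribosomal proteins stayed near the array's centre, with 10 lower, 3 higher and a median of -0.01, and 6 lower without the first confluent array. Nuclear traffic was lower as well: 42 of 54 nuclear pore and transport genes fell, 23 of them by 2-fold or more, and 1 rose. Both regulators of the Ran nucleotide cycle stood among the falls, with Rangap1, the activator of Ran's GTPase, at -2.03 and Rcc1, its exchange factor, at -1.97. Splicing factors (57 of 77 lower, 7 higher), translation factors (37 of 55 lower, 7 higher, 4 without the second array of either density) and aminoacyl-tRNA synthetases (16 of 17 lower, 1 higher) moved alike. So did 33 of 39 proteasome subunits, with a median of -0.56. The 1 proteasome gene that rose was Psmb9, a subunit of the immunoproteasome, at 7.92 and 7.96 in confluent cells, against 7.20 and 7.26 in sparse cells. Cytosolic folding genes followed (17 of 24 lower), with Hsph1, a nucleotide exchange factor for Hsp70, at -1.72 and the chaperonin subunit Cct6a at -1.07. Folding genes of the endoplasmic reticulum were mostly the other way, with 15 of 28 higher and 8 lower. Xbp1, a transcription factor of the unfolded protein response, rose by 1.04, and Hspa5, the main chaperone there, fell by 0.32.

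Polyamine and one-carbon genes belonged to the same lower group. Odc1, the rate-limiting enzyme of polyamine synthesis, read 9.91 and 9.87 in confluent cells, against 12.17 and 12.19 in sparse cells, and fell by 2.29 (SE 0.0506, adjusted p = 7.04e-10). Srm, the spermidine synthase, fell by 1.82, while Smox, which oxidises spermine, rose by 1.79. Over the list, 6 of 10 members were lower and 3 higher. Shmt2 and Mthfd2, the mitochondrial enzymes of one-carbon metabolism, fell (changes of -2.20 and -2.12).

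**Figure D2:**
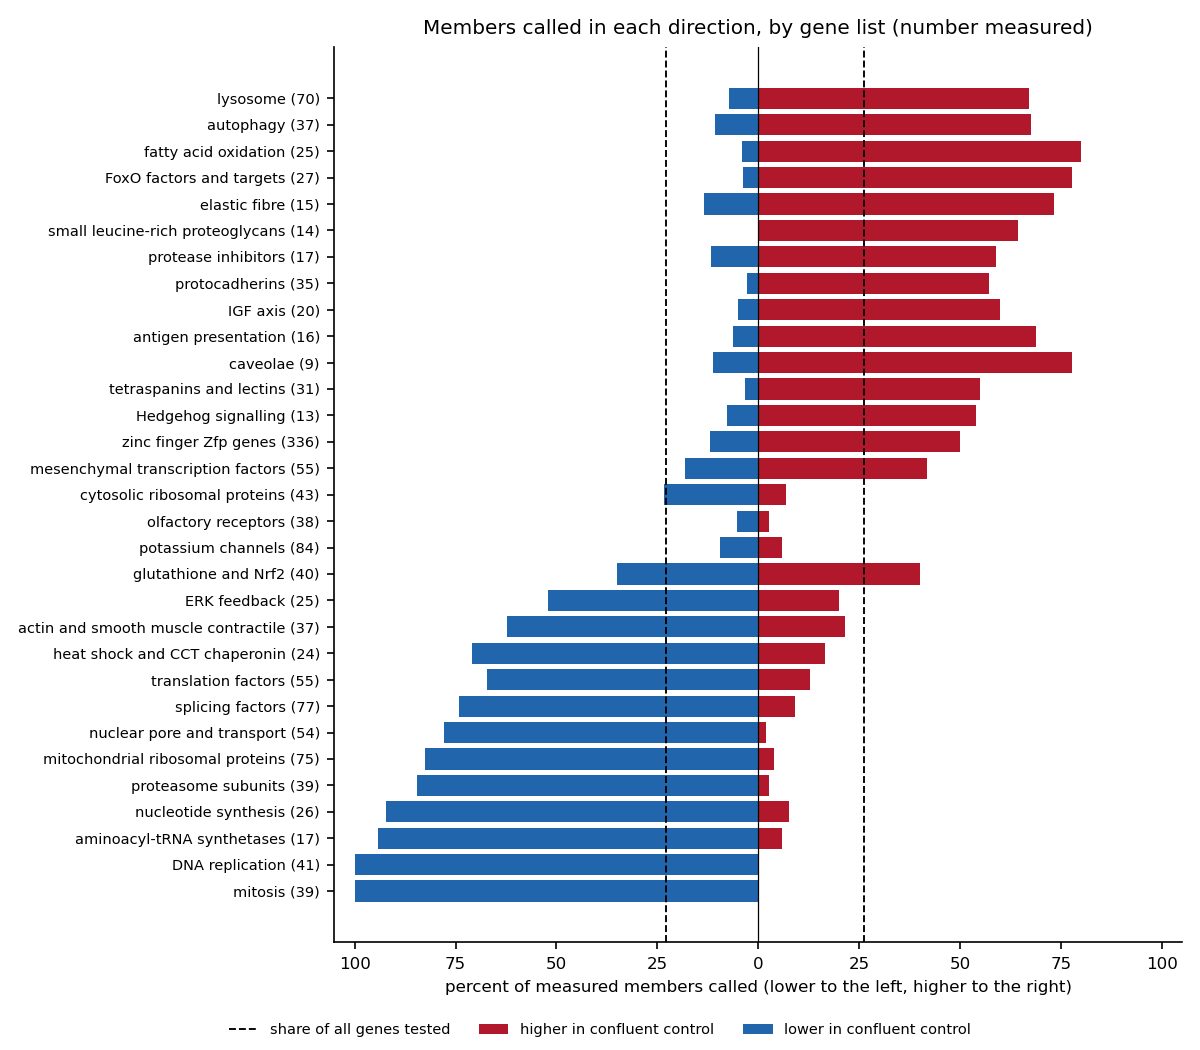
Percent of the measured members of 31 gene lists called lower (blue, to the left) or higher (red, to the right) in confluent control, with the number measured in brackets; dashed lines mark the shares over all genes, 22.8% lower and 26.1% higher. The 31 lists were picked from 97 with their results known; growth machinery and the cycle fill the left side, and lysosome, autophagy, fatty acid oxidation and matrix lists the right.

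Fatty acid oxidation, lysosome and autophagy genes were mostly higher in confluent cells. Of 25 fatty acid oxidation genes, 20 were higher and 1 lower (median 0.52). Acadm, the medium-chain acyl-CoA dehydrogenase, read 11.39 and 11.37 in confluent cells, against 9.19 and 9.18 in sparse cells, and rose by 2.20 (SE 0.0572, adjusted p = 1.44e-09). Cpt2, which completes the entry of fatty acids into mitochondria, rose by 1.59, and Pdk4, the kinase that holds pyruvate dehydrogenase off, rose by 1.85. Acadl, the long-chain dehydrogenase, was the member that fell (change of -0.37). Synthesis of fatty acids went mostly down, with 9 of 15 genes lower and 4 higher. Elovl6, which elongates palmitate, fell by 1.70, and Fasn, the fatty acid synthase, fell by 0.79. Abca1, the pump that exports cholesterol from cells, read 7.84 and 7.81 in confluent cells, against 4.59 and 4.73 in sparse cells, and rose by 3.16 (SE 0.0747, adjusted p = 8.7e-10). Lpl, the lipoprotein lipase, rose by 1.68, and the fatty acid binding protein Fabp5 fell by 1.86.

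Lysosomal genes were higher for 47 of 70 members, with 5 lower and a median of 0.58. Ctso, a cysteine protease of that compartment, read 9.59 and 9.67 in confluent cells, against 7.08 and 7.09 in sparse cells. Lamp2, a major membrane protein of lysosomes, read 12.09 and 12.10 in confluent cells, against 10.35 and 10.31 in sparse cells. Atp6v0d1, a subunit of the pump that acidifies them, rose by 1.72. Gusb, the lysosomal glucuronidase, read 8.03 and 7.87 in confluent cells, against 9.36 and 9.33 in sparse cells, and fell by 1.39 on 1 of its 2 probe sets. Autophagy genes numbered 25 higher and 4 lower of 37. Ulk2, a kinase that starts autophagy, read 9.71 and 9.54 in confluent cells, against 7.53 and 7.46 in sparse cells, and rose by 2.13 (SE 0.071, adjusted p = 6.36e-09), Gabarap, an autophagosome protein, rose by 0.96, and Atg5, which helps attach such proteins to membranes, fell by 0.51.

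The list of FoxO factors and their known targets was higher for 21 of 27 members and lower for 1. FoxO factors are known to be active when insulin-type signalling through Akt is low, which was not measured here. Ccng2, a cyclin linked to arrest, read 10.06 and 10.02 in confluent cells, against 6.60 and 6.74 in sparse cells. Pik3ip1, an inhibitor of phosphoinositide 3-kinase, read 11.09 and 11.03 in confluent cells, against 7.32 and 7.49 in sparse cells. Txnip, which restrains glucose uptake and thioredoxin, read 11.24 and 11.23 in confluent cells, against 7.31 and 7.70 in sparse cells. The arrays of the 2 densities were apart for all 3 genes, and the changes were 3.37, 3.66 and 3.73, or 10.3-fold, 12.6-fold and 13.3-fold. Bcl2l11, a death-promoting Bcl-2 relative (Bim), rose by 2.12. Genes that p53 induces showed no such shift: 6 of 23 were higher and 13 lower, with Ccng1 at -1.20 and Btg1, which slows proliferation, at 1.33. Within the Bcl-2 family 7 members were higher and 7 lower of 15. Bmf, a death-promoting member linked to loss of attachment, read 9.33 and 9.35 in confluent cells, against 4.35 and 4.67 in sparse cells, and rose by 4.83, called on 2 of 3 probe sets. Bbc3 (Puma) rose by 1.01, and Pmaip1 (Noxa), another p53-responsive death gene, fell by 1.72. 

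The glutathione and Nrf2 list had members on both sides, with 16 of 40 higher and 14 lower. Slc7a11, the cystine importer, fell by 1.52, Gclm, a subunit of the enzyme that starts glutathione synthesis, fell by 1.25, and Txnrd1, a thioredoxin reductase, fell by 1.37. The transferases Gstm1, Gstm2 and Gsta4 rose by 1.91, 1.30 and 1.34. These transferases belong to families of similar sequence, whose probe sets may share signal. Aldh3a1, an aldehyde dehydrogenase, read 9.10 and 9.03 in confluent cells, against 4.81 and 4.43 in sparse cells, a rise of 4.44. Of 22 citric acid cycle genes 4 were higher and 8 lower, and glycolysis and hypoxia genes were 11 higher and 13 lower of 35.

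Among growth factor signalling genes several ligands fell and several receptors rose, but the lists they come from held members on both sides. Hbegf, a ligand of the EGF receptor, read 6.19 and 6.59 in confluent cells, against 8.94 and 8.78 in sparse cells, and fell by 2.47 (SE 0.143, adjusted p = 2.4e-07). Ereg, another such ligand, read 6.06 and 6.22 in confluent cells, against 8.41 and 8.30 in sparse cells, and fell by 2.22 (SE 0.0728, adjusted p = 5.73e-09). Pdgfa and Fgf2, growth factors for fibroblasts, fell (changes of -0.93 and -1.07). Not every ligand did so: Fgf7, made by fibroblasts to act on epithelium, read 10.58 and 10.65 in confluent cells, against 9.31 and 9.13 in sparse cells, and rose by 1.40, and Nrg1 rose by 0.66. Of the receptors, Pdgfra read 12.95 and 12.73 in confluent cells, against 9.10 and 8.98 in sparse cells, and rose by 3.80 (SE 0.0745, adjusted p = 4.09e-10). Pdgfrb rose by 1.80 and Fgfr1 rose by 1.01. Egfr rose by 0.58 and was called higher on 4 of its 7 probe sets, which ran from -0.25 to 1.70. Met, the receptor of hepatocyte growth factor, went the other way and fell by 0.75. Epha2, a receptor for ephrins on neighbouring cells, read 7.16 and 6.81 in confluent cells, against 9.57 and 9.30 in sparse cells, and fell by 2.45 (SE 0.117, adjusted p = 6.43e-08). Over the PDGF and FGF list 8 of 23 members were higher and 4 lower, shares close to those of all genes. Over the EGF family list, which holds Hbegf and Ereg, 6 of 15 were higher and 4 lower (median 0.21).

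**Figure D3:**
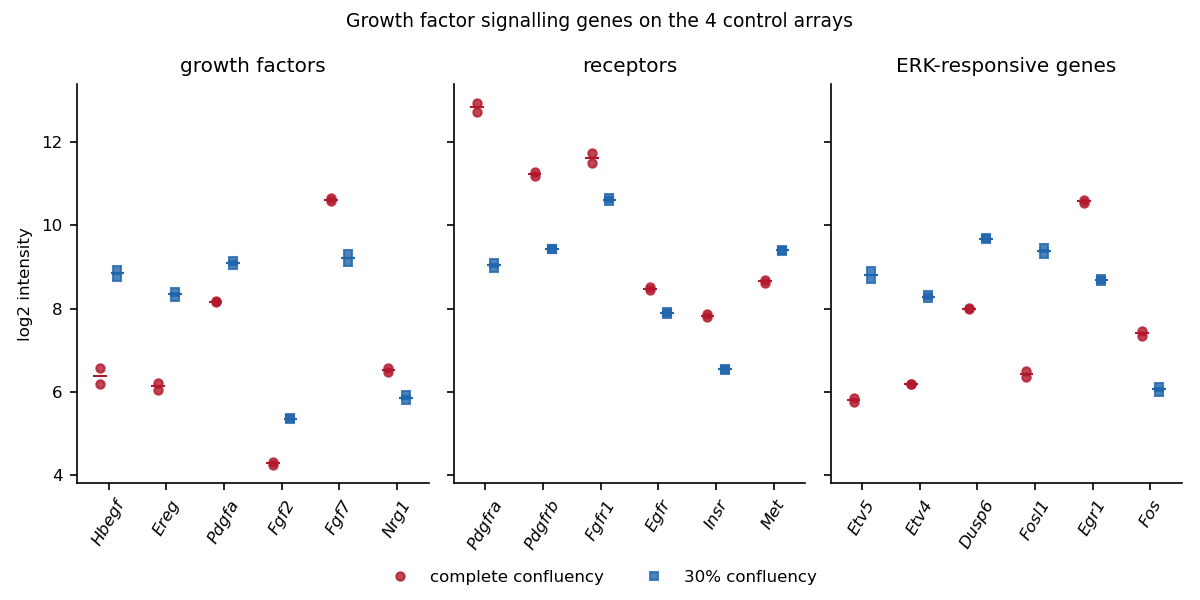
Log2 intensity (y axis) of growth factors, receptors and ERK-responsive genes (x axis) on each of the 4 control arrays, with red circles for complete confluency, blue squares for 30% confluency and a line at each mean. Hbegf, Ereg, Etv5 and Fosl1 sit lower, and Pdgfra, Pdgfrb and Egr1 higher, on both confluent arrays.

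Genes that report activity of the kinase ERK did not agree in direction. Etv5, a transcription factor induced by FGF signals, read 5.76 and 5.85 in confluent cells, against 8.91 and 8.72 in sparse cells. Its relative Etv4 read 6.20 and 6.19 in confluent cells, against 8.25 and 8.32 in sparse cells. Dusp6, a phosphatase that ERK induces and that switches ERK off, read 8.01 and 7.98 in confluent cells, against 9.70 and 9.67 in sparse cells. Fosl1, an AP-1 subunit that accumulates with lasting ERK activity, read 6.37 and 6.52 in confluent cells, against 9.32 and 9.45 in sparse cells. All 4 were lower, with changes from -3.01 for Etv5 to -1.68 for Dusp6, and adjusted p between 1.12e-09 for Fosl1 and 1.1e-08 for Etv4. On the feedback list 13 of 25 genes were lower and 5 higher, the higher count being 3 without the first sparse array, with centred arrays or on the 4 control arrays alone. The immediate early genes Egr1, Fos and Fosb, which serum induces within minutes, were higher. Egr1 read 10.54 and 10.62 in confluent cells, against 8.71 and 8.66 in sparse cells, and rose by 1.90 (SE 0.0584, adjusted p = 3.94e-09), Fos rose by 1.34 and Fosb rose by 1.74. Of the immediate early list, 12 of 23 were higher and 5 lower. Fosl2 is listed among the higher genes at 0.71, but its 2 probe sets were called in opposite directions (-0.79 and 0.71). Zfp36, whose protein destabilises inflammatory transcripts, rose by 1.05.

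The insulin-like growth factor axis leaned towards higher, with 12 of 20 genes higher and 1 lower. Igfbp4, a secreted protein that binds IGFs, read 12.52 and 12.47 in confluent cells, against 9.26 and 9.17 in sparse cells, and rose by 3.28 (SE 0.0695, adjusted p = 6.21e-10). Pappa, the protease that cleaves that binding protein, read 8.59 and 8.84 in confluent cells, against 5.86 and 5.96 in sparse cells, and rose by 2.80 (SE 0.0776, adjusted p = 1.99e-09). The adaptor Irs1 rose by 1.01, and the insulin receptor Insr rose by 1.29, called on 1 of 3 probe sets. The gene on this list that fell was Stc2, an inhibitor of Pappa, at 6.80 and 6.70 in confluent cells, against 8.46 and 8.38 in sparse cells.

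Of the 29 TGF-beta genes 13 were higher and 9 lower. The ligands Tgfb2 and Tgfb3 rose by 1.23 and 1.20, and Tgfbr2 rose by 1.19 on 2 of 3 probe sets. Smad7, an inhibitor that the pathway itself induces, read 7.67 and 7.87 in confluent cells, against 9.03 and 9.01 in sparse cells, and fell by 1.25. Id1, which BMP signals and serum induce and which blocks differentiation factors, read 8.04 and 8.03 in confluent cells, against 10.61 and 10.63 in sparse cells, and fell by 2.58 (SE 0.0624, adjusted p = 9.19e-10). Id2 fell by 1.14, and Bambi, a decoy receptor, fell by 1.25. These falls were not typical of the BMP and Id list, where 8 of 23 members were higher and 5 lower. That is 34.8% and 21.7%, against 26.1% and 22.8% of all genes. Among Hedgehog genes 7 of 13 were higher and 1 lower, or 4 and 2 when a gene's probe sets were averaged. The coreceptor Cdon read 10.61 and 10.57 in confluent cells, against 7.40 and 7.47 in sparse cells, and rose by 3.16 (SE 0.0698, adjusted p = 7.04e-10). Gas1, a surface protein that binds Hedgehog and was first found in arrested fibroblasts, read 14.05 and 13.93 in confluent cells, against 11.98 and 12.02 in sparse cells, and rose by 1.99. The target gene Gli1 fell by 0.62. For Wnt, Rspo2, a secreted enhancer of the pathway, read 10.12 and 10.17 in confluent cells, against 7.74 and 7.61 in sparse cells on 1 of 2 probe sets, Lrp6, a Wnt coreceptor, rose by 1.74, and Fzd7, a Wnt receptor, fell by 1.03. The Wnt list had 13 higher and 8 lower of 42 and the Notch list 7 higher and 3 lower of 25, shares near those of all genes. Without single arrays the lower Wnt count was 5 (first sparse array left out), 3 (second sparse) or 4 (first confluent). Gas6, a ligand of the TAM receptors, read 11.36 and 11.38 in confluent cells, against 8.11 and 8.03 in sparse cells, and rose by 3.30 (SE 0.0556, adjusted p = 2.69e-10), on both of its probe sets. Its receptor Axl was called at -0.15, a call lost without any 1 of the 4 arrays.

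Of 29 genes of the Yap and Tead pathway 9 were higher and 8 lower, and 4 of the lower ones changed by 2-fold or more. That is 31.0% and 27.6%, shares near the 26.1% and 22.8% of all genes. Averaging a gene's probe sets made 13 lower. Yap1 read 9.95 and 9.98 in confluent cells, against 9.79 and 9.83 in sparse cells, a called change of 0.15 that lost its call without any 1 of the 4 arrays, and Wwtr1 (Taz) read 9.93 and 9.96 in confluent cells, against 9.89 and 9.88 in sparse cells and was not called. Tead4 read 6.69 and 6.50 in confluent cells, against 8.39 and 8.42 in sparse cells, and fell by 1.82 (SE 0.0779, adjusted p = 3.17e-08), while Tead2 rose by 0.26 and Tead1 and Tead3 were not called. Vgll3, a cofactor that binds Tead factors, fell by 1.03, and Wwc1 (Kibra), an upstream Hippo protein, fell by 1.34 on 2 of 4 probe sets. Targets of Yap known from other cells were mixed: of 22, 10 were lower and 9 higher (median -0.09). Ccn2 (CTGF), a secreted matrix-associated protein, had the largest fall of all genes. It read 6.31 and 6.71 in confluent cells, against 11.59 and 11.62 in sparse cells, and fell by 5.10 (SE 0.106, adjusted p = 5.5e-10). Ankrd1, whose promoter is shown above, read 6.91 and 7.14 in confluent cells, against 8.84 and 9.02 in sparse cells, and fell by 1.91 (SE 0.0908, adjusted p = 6.29e-08) on both probe sets. Ajuba, a scaffold protein, and Nuak2, a kinase, fell (changes of -1.17 and -1.11). F3, the coagulation receptor tissue factor, read 10.73 and 10.76 in confluent cells, against 8.34 and 8.34 in sparse cells, and rose by 2.41 (SE 0.0562, adjusted p = 8.35e-10). Tgfb2, Rbms3 and Dlc1 also stood among the higher members. Ptpn14 rose by 0.37 on the probe set used, but 2 of its 3 probe sets were called lower.

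Contact and cytoskeleton genes shifted in both directions. Gja1 (connexin 43), which forms gap junctions between fibroblasts, read 8.25 and 8.41 in confluent cells, against 11.31 and 11.24 in sparse cells, and fell by 2.95 (SE 0.0808, adjusted p = 1.85e-09) on all 6 probe sets. Pkp2, a desmosome plaque protein, fell by 1.44, and Nectin2, a cell adhesion protein, rose by 1.16 on 1 of 2 probe sets. The cadherin and junction list had 6 higher and 9 lower of 34, and 19 not called. That is 17.6% and 26.5%, against 26.1% and 22.8% of all genes, so calls were no more frequent there than elsewhere. Protocadherins were higher for 20 of 35 members and lower for 1. Only 10 of the 35 lay above the median gene, and a filter on level left 6 higher and 0 lower. Among the clustered beta genes, Pcdhb9 read 7.97 and 8.07 in confluent cells, against 5.40 and 5.31 in sparse cells and Pcdhb17 read 9.33 and 9.25 in confluent cells, against 6.47 and 6.93 in sparse cells. These genes are near copies of one another in a single cluster, so that how many of them changed is uncertain. Srf, the factor that drives actin genes, read 7.83 and 7.88 in confluent cells, against 9.39 and 9.49 in sparse cells, and fell by 1.58. Its target Tagln fell by 1.48, and Fhl1 fell by 2.85 on 1 of 2 probe sets. Mylk, the kinase of myosin light chain, was opposite, at 8.90 and 8.89 in confluent cells, against 6.23 and 6.29 in sparse cells, and rose by 2.64 (SE 0.06, adjusted p = 7.08e-10). Tns1, which links integrins to actin, rose by 2.10. Caveolar genes were higher for 7 of 9, with Cav1, their coat protein, at 12.88 and 12.92 in confluent cells, against 12.03 and 12.02 in sparse cells, and lower for Cavin2 (-0.98). The higher count was 5 with centred arrays, on the 4 control arrays alone, and without the first array of either density. Kinesins had 13 higher and 15 lower of 43. The spindle motors Kif11 and Kif23 fell (changes of -2.72 and -2.45), and the cargo motors Kif13b and Kif16b rose by 1.54 and 1.48. Ift122 and Dync2li1, which serve transport in the primary cilium of resting cells, rose by 1.87 and 1.59. Their list of dyneins, tubulins and cilia genes had 37 of 117 higher and 28 lower, shares near those of all genes.

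Many matrix genes were higher in confluent cells. Of 32 collagen chains 19 were higher and 2 lower. Sned1 and Abi3bp, secreted matrix proteins, had the largest rises of all genes (6.30 and 6.22), with Sned1 at 13.21 and 13.18 in confluent cells, against 6.96 and 6.83 in sparse cells. The collagen-binding proteoglycan Dcn read 13.36 and 13.34 in confluent cells, against 7.57 and 7.53 in sparse cells. Of 14 small leucine-rich proteoglycans 9 were higher and 0 lower. Only 6 of the 14 lay above the median gene, and a filter on level left 5 higher. Lum, which spaces collagen fibrils, read 7.22 and 7.30 in confluent cells, against 3.73 and 3.94 in sparse cells, and rose by 3.42 (SE 0.137, adjusted p = 2.02e-08). Ogn read 10.66 and 10.79 in confluent cells, against 7.94 and 7.94 in sparse cells and Aspn read 10.32 and 10.25 in confluent cells, against 6.83 and 6.67 in sparse cells, rises of 2.79 and 3.53. Elastic fibre genes were higher for 11 of 15 and lower for 2, with Ltbp4, which stores latent TGF-beta and helps elastin assemble, at 10.06 and 9.97 in confluent cells, against 7.99 and 8.0 in sparse cells. Of 19 basement membrane genes 7 were higher and 2 lower. Nid2 read 8.98 and 8.83 in confluent cells, against 5.26 and 5.47 in sparse cells, and rose by 3.54, whereas its relative Nid1 fell by 0.48. Sulf2, which trims sulfate from heparan chains, read 13.17 and 13.22 in confluent cells, against 10.40 and 10.36 in sparse cells, and rose by 2.82. Of 31 matrix proteases 15 were higher and 2 lower, and of 17 protease inhibitors 10 and 2. The membrane protease Mmp14 rose by 2.11 (SE 0.0794, adjusted p = 1.33e-08). Reck, an anchored inhibitor of such proteases, read 9.27 and 9.19 in confluent cells, against 6.11 and 6.05 in sparse cells, and rose by 3.15 (SE 0.0607, adjusted p = 3.6e-10), and Slpi, a secreted inhibitor of serine proteases, rose by 2.52. Timp1 differed from its relative Timp3: Timp1 read 9.46 and 9.44 in confluent cells, against 11.21 and 11.30 in sparse cells, and fell by 1.81 (SE 0.0577, adjusted p = 4.9e-09), while Timp3 rose by 1.34. Adam12, a metalloprotease, fell by 1.25. Ptn, the secreted growth factor pleiotrophin, read 13.36 and 13.13 in confluent cells, against 9.65 and 9.48 in sparse cells, Islr, a secreted leucine-rich protein of mesenchymal cells, read 8.26 and 8.37 in confluent cells, against 3.78 and 3.42 in sparse cells, and Clec3b (tetranectin) read 11.39 and 11.30 in confluent cells, against 7.08 and 6.92 in sparse cells.

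Secreted immune genes moved in both directions. Of 34 chemokine and cytokine genes 6 were higher, 10 lower and 18 not called (median -0.07). That is 17.6% and 29.4%, against 26.1% and 22.8% of all genes, so calls were no more frequent there than elsewhere. C1s1, a protease of the first complement component, read 10.82 and 10.82 in confluent cells, against 6.02 and 6.21 in sparse cells. C1ra, the protease that activates it, read 9.75 and 9.80 in confluent cells, against 6.87 and 6.95 in sparse cells. They rose by 4.71 and 2.87 (26.1-fold and 7.29-fold). The complement and acute phase list as a whole had 7 higher and 3 lower of 22, shares not far from those of all genes, and the lower count was 0 without the second sparse array and 1 without either confluent array. The monocyte attractant Ccl2 read 6.54 and 6.17 in confluent cells, against 8.88 and 9.01 in sparse cells. The related Ccl7 read 6.50 and 6.58 in confluent cells, against 8.76 and 8.82 in sparse cells. They fell, with changes of -2.59 and -2.25, and Cxcl5, which attracts neutrophils, fell by 1.40. Ccl9 was opposite and rose by 1.95, as was Il1r1, the receptor of interleukin 1, which rose by 1.58. Ptgs2, the inducible cyclooxygenase, read 7.32 and 7.46 in confluent cells, against 10.13 and 9.97 in sparse cells, and fell by 2.66 (SE 0.0863, adjusted p = 5.33e-09), and Pla2g4a, which frees its substrate, fell by 1.36. The prostaglandin list that holds these 2 genes was split, with 6 of 17 members higher and 7 lower. Interferon-responsive genes were higher for 23 of 36 and lower for 3, with Gbp2 at 2.24 and Ifit2 at -1.24. Antigen presentation genes were higher for 11 of 16, with B2m, the light chain of class I molecules, at 13.83 and 13.74 in confluent cells, against 12.68 and 12.56 in sparse cells.

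Transcription factors of mesenchymal identity were higher for 23 of 55 and lower for 10. Sox4 read 13.17 and 13.17 in confluent cells, against 9.43 and 9.25 in sparse cells, and rose by 3.83 (SE 0.073, adjusted p = 3.6e-10) on 5 of its 8 probe sets. Osr1, a regulator of connective tissue, read 12.79 and 12.64 in confluent cells, against 9.89 and 9.91 in sparse cells, and rose by 2.82, Ebf1 rose by 2.68 and Prrx1, a factor of limb mesenchyme, rose by 1.42. Klf5, a factor of growing cells, read 7.15 and 7.10 in confluent cells, against 8.95 and 9.11 in sparse cells, and fell by 1.91. In the circadian clock 10 of 21 genes were higher and 6 lower. Dbp, an output gene that Clock and Bmal1 drive, read 10.11 and 10.06 in confluent cells, against 8.34 and 8.21 in sparse cells, and rose by 1.81 (SE 0.076, adjusted p = 2.71e-08). Per3 rose by 1.90 and Rora, an activator of the Bmal1 gene, rose by 2.10 on all 9 probe sets. Arntl, the gene of Bmal1, fell by 0.86, Nfil3, which represses the sites that Dbp uses, fell by 0.79, and Nr1d1 and Nr1d2 were not called. The hour of harvest is not given in the labels. Nr3c2, the mineralocorticoid receptor, rose by 2.24 (SE 0.111, adjusted p = 8.36e-08).

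Chromatin genes moved in both directions. On the DNA methylation and Polycomb list 11 of 26 were higher and 9 lower (median 0.08). Dnmt1, which copies DNA methylation at replication, read 9.01 and 8.91 in confluent cells, against 10.78 and 10.80 in sparse cells, and fell by 1.83 (SE 0.0562, adjusted p = 3.86e-09). Dnmt3a, which sets methylation anew, read 8.10 and 8.23 in confluent cells, against 6.91 and 6.84 in sparse cells, and rose by 1.29 on 3 of 5 probe sets. The Polycomb methyltransferase of dividing cells, Ezh2, read 8.68 and 8.72 in confluent cells, against 10.20 and 10.06 in sparse cells, and fell by 1.43, and its relative Ezh1 read 7.78 and 7.82 in confluent cells, against 6.33 and 6.18 in sparse cells, and rose by 1.54. Kdm6b, which removes the mark these enzymes set, rose by 1.89. Hmga2, an architectural protein of embryonic and growing cells, fell by 3.49, and Hmgb2 fell by 2.03. The linker histone gene H1f2 read 10.90 and 10.96 in confluent cells, against 7.98 and 8.02 in sparse cells, and rose by 2.93 on 2 of 3 probe sets. Of 336 Zfp zinc finger genes 168 were higher and 40 lower (median 0.24). Families with little known expression in fibroblasts had few calls: 1 of 38 olfactory receptors was higher and 2 lower, and of 84 potassium channels 5 were higher and 8 lower. These small counts moved when single arrays were left out, from 0 lower olfactory receptors without the second sparse array to 5 without the first, and to 2 higher potassium channels without the first confluent array. Of those channels Kcnn4, a calcium-gated channel linked to proliferation, read 7.83 and 7.90 in confluent cells, against 9.58 and 9.60 in sparse cells, and fell by 1.73. Prkg2, a kinase that responds to cyclic GMP, read 7.24 and 7.04 in confluent cells, against 10.10 and 10.02 in sparse cells, and fell by 2.92 (SE 0.0747, adjusted p = 1.31e-09).

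The remaining arrays place these genes beside cells of other densities that carried a construct, in which density and construct cannot be told apart. C1s1 averaged 10.82 in confluent control, 10.80 in Tead2-VP16 cells at complete confluency, 9.57 in Tead2-VP16 cells at high density, 9.67 in Yap cells at high density, 7.03 in Tead2-EnR cells at low density and 6.12 in sparse control. Etv5 averaged 5.80 in confluent control, 5.96 in Tead2-VP16 cells at complete confluency, 7.68 in Tead2-VP16 cells at high density, 7.12 in Yap cells, 7.65 in Tead2-EnR cells and 8.81 in sparse control. For both genes the 2 completely confluent groups stood at one end and sparse control at the other, with the remaining 3 groups between. Both genes were picked for a large change between the 2 controls, which favours such an order.

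**Figure D4:**
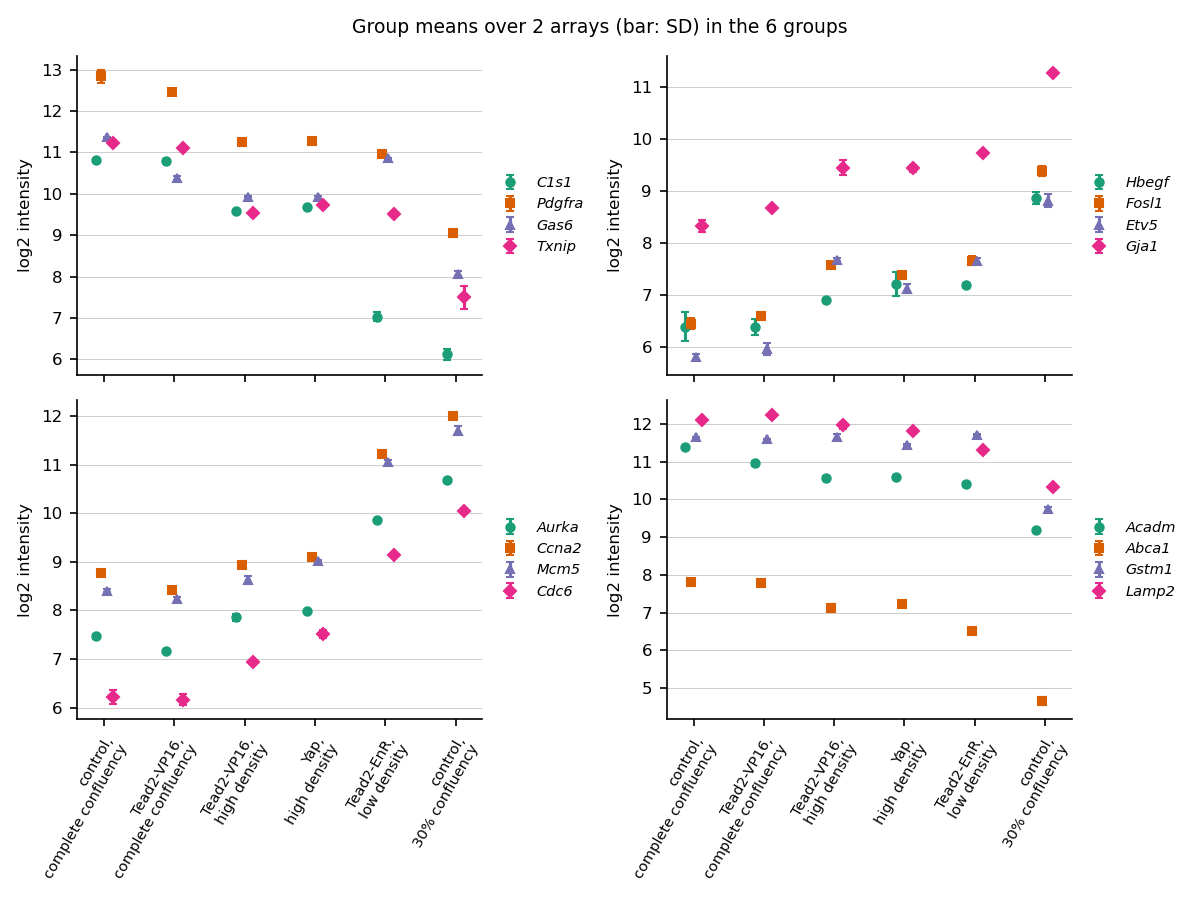
Mean log2 intensity over 2 arrays (y axis, bars are SD) of 16 genes in the 6 groups of the series (x axis), from control at complete confluency on the left to control at 30% confluency on the right. The 16 genes were picked among those that changed between the 2 control groups, so the difference between these groups follows from the choice. The construct-bearing groups mostly lie between the 2 controls, which that choice also favours.

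Tead2-VP16 cells were also measured at 2 densities, complete confluency and high density, on arrays that share none with the control step. The lower density there was already high, so the 2 steps differ in span and are set side by side with no test of the difference. Of all genes 12.1% were higher and 12.4% lower in the Tead2-VP16 step. Of the 4748 genes higher in the control step, 1657 (34.9%) were also higher in the Tead2-VP16 step, where they made up 75.2% of the rises, and 331 were lower there. Of the 4150 lower genes, 1386 (33.4%) were also lower there, or 61.3% of its falls, and 219 were higher there. Actin and contractile genes were lower for 23 of 37 members in the control step and 21 in the Tead2-VP16 step. Mitosis genes were lower for 39 of 39 in the control step (median -2.60) and for 16 in the Tead2-VP16 step (median -0.16). Fatty acid oxidation genes were higher for 20 of 25 in the control step and 4 in the Tead2-VP16 step. Aminoacyl-tRNA synthetases were lower for 16 of 17 in the control step, whereas in the Tead2-VP16 step 3 were lower and 7 higher. Folding genes of the endoplasmic reticulum were higher for 15 and lower for 8 of 28 in the control step, and higher for 4 and lower for 15 in the Tead2-VP16 step.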

How the data were processed

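Transcript levels were measured on 12 Affymetrix arrays of NIH3T3 cells in 6 groups of 2. The deposited values are probe set intensities, made with RMA per the submitters' processing notes, which give no version. RMA usually gives log2 values. The intensities were linear as deposited and were therefore log2-transformed. Across arrays the median intensity lay between 51.9 and 53.7. Of 45101 probe sets, 34945 had 1 gene symbol, 932 several, 9160 none and 64 were controls. Each gene was read from its brightest probe set by the mean of all 12 arrays, which left 18193 genes. Low genes were kept.

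A limma 3.58.1 model (R 4.3.3; lmFit and eBayes) took in every array and gave each group its own mean. Tests were two-sided, with Benjamini-Hochberg adjustment over all genes and calls at an adjusted p under 0.05. The fit was tested on simulated data.

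The 97 gene lists, the members named and the comparison itself were chosen with earlier results of these data known. No list was tested as a set. Named genes were the 15 largest rises and 15 largest falls, up to 4 called members of each list in each direction by adjusted p, all members of lists of 12 or fewer and of the Yap and Tead pathway, conserved Yap target, PDGF and FGF, proteoglycan, clock and immediate early lists; not all are printed. Promoters came from RefSeq (GRCm38.p6) and 14449 of the genes tested had one. Alternatives were a filter on level, every probe set, averaged probe sets, a block for the replicate number, a trended robust prior, repeated quantile normalization, centring, intensity plus 32 before log2, the 4 control arrays alone, an adjusted p of 0.01 and each array left out. Figures were drawn with matplotlib.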

Additional observations from a re-analysis of the deposited data

Results flagged for a closer look

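Changes were also called among the 9160 probe sets that carry no gene symbol here and that the comparisons above do not use. In confluent control 905 of them were called higher and 764 lower (limma, adjusted over all probe sets). By 2-fold or more, 138 were higher and 97 lower. These are smaller shares than among the 34945 probe sets tested with a gene symbol. Of those, 8238 were called higher and 7666 lower, with 1808 and 1693 past 2-fold. Among the probe sets without a symbol, that with the largest rise read 8.08 and 8.20 in confluent cells, against 4.50 and 4.77 in sparse cells, a change of 3.51. The one with the largest fall read 6.53 and 6.24 in confluent cells, against 9.79 and 9.57 in sparse cells, a change of -3.30. Their genes were not looked up beyond the annotation used here.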

How the results depend on the processing

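The counts of 4748 genes higher and 4150 lower stayed within 1.5 times under the alternatives run except 1. Testing every probe set, 34945 in all, called 8238 higher and 7666 lower, with 1808 and 1693 past 2-fold. More features were tested there. Requiring an adjusted p under 0.01 left 4030 higher and 3368 lower, the 4 control arrays alone gave 4408 and 3839, and intensity plus 32 gave 4853 and 4129, with 795 and 818 past 2-fold. Centring arrays gave 4398 and 4654, so 48.6% of calls were higher, against 53.4% as reported. Averaging a gene's probe sets gave 4486 and 4167; it kept 7960 of the 8898 calls, and 187 genes changed sign. Of the genes named, it turned Fosl2 to -0.039 and Ptpn14 to -0.26, where probe sets disagree. Leaving out each array gave 4247 to 4446 higher and 3685 to 3995 lower, 1051 to 1069 and 929 to 978 past 2-fold, with 7744 to 7880 of the calls kept. Among the genes named, Axl, Cdkn1c, Vim and Yap1 lost their call when single arrays of either density were left out; Cdkn1c was -0.15 without the first confluent array, and Cdkn2a was called lower, at -0.48, without the second sparse array. The lone array left is then assumed to vary like the other groups. With the replicate block, 4741 were higher and 4155 lower, and 8741 of the 8898 calls were kept. The replicate numbers are not shown to pair the samples: deviations from the group means of same-numbered arrays correlated at r = 0.0153 over 18193 genes, with 2 pairs only.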

Other observations

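Guidance, transport and surface genes held further changes that no comparison above describes. Sema3b and Sema3c, secreted semaphorins that steer cell and axon movement, read 8.14 and 8.21 in confluent cells, against 5.63 and 5.15 in sparse cells for Sema3b, and 11.67 and 11.77 in confluent cells, against 9.76 and 9.77 in sparse cells for Sema3c. Slit2, a secreted guidance cue of another family, read 7.36 and 7.49 in confluent cells, against 9.22 and 9.17 in sparse cells, and fell by 1.77. The list of semaphorins, plexins, Slits and netrins had 12 higher and 5 lower of 47. That is 25.5% and 10.6%, against 26.1% and 22.8% of all genes, so rises were no more frequent than elsewhere. Slc5a3, which imports the osmolyte inositol, read 12.43 and 12.25 in confluent cells, against 9.34 and 9.34 in sparse cells, and rose by 3.0 (SE 0.0701, adjusted p = 8.35e-10), on all 3 probe sets. Slc19a1, which imports folate, fell by 1.64 on 2 of 3 probe sets. Over 347 solute carriers 87 were higher and 66 lower, shares near those of all genes.

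The receptors for natriuretic peptides moved apart. Npr2, which makes cyclic GMP, read 8.85 and 8.94 in confluent cells, against 7.13 and 7.46 in sparse cells, and rose by 1.60. Npr3, which clears the peptides, read 4.89 and 4.87 in confluent cells, against 7.26 and 7.40 in sparse cells, and fell by 2.45. Diaph3, a formin needed in cell division, read 6.0 and 6.19 in confluent cells, against 8.72 and 8.63 in sparse cells, and fell by 2.58. Of the Hox genes 9 of 33 were higher and 3 lower (27.3% and 9.09%), the higher share near the 26.1% of all genes. Hoxa3 read 9.84 and 9.80 in confluent cells, against 8.41 and 8.51 in sparse cells. Fbxo5, an inhibitor of the anaphase-promoting complex, read 7.06 and 7.09 in confluent cells, against 9.88 and 9.82 in sparse cells, and fell by 2.77. Opcml, a membrane-anchored adhesion protein, read 8.11 and 8.05 in confluent cells, against 5.80 and 5.76 in sparse cells, and rose by 2.30, whereas Alcam, another adhesion protein, fell by 1.92.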
